A study of Mus musculus with 6 samples.

Results

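The genes described here encode the collagens, laminins and nidogens of the extracellular matrix together with fibronectin, vitronectin, tenascin-C, SPARC and fibrillin-1. They were taken by gene symbol: every gene named as a collagen α chain or as a laminin α, β or γ chain, plus Fn1, Vtn, Tnc, Sparc, Nid1, Nid2 and Fbn1. This gave 62 of the 54309 genes in the table, made up of 11 fibrillar collagens, 21 basement membrane genes, 25 other collagens and 5 glycoproteins. The rule used names and no measured values, but the members were chosen with earlier results of these data known.

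The 6 RNA-seq libraries come from lumbar (L4 to L6) dorsal root ganglia, which hold the cell bodies of sensory neurons, of male C57bl/6 mice 8 to 10 weeks old. Both sciatic nerves received adeno-associated virus, used to deliver a gene, with either GFP alone (AAV-GFP, 3 libraries) or leptin and GFP (AAV-Leptin-GFP, 3 libraries). After 4 weeks the dorsal columns were cut, which severs the central branch of sensory axons, and 24 hours later the ganglia were collected. Every library carries this injury, so there is no uninjured group. Before RNA isolation the tissue was digested with papain, dispase and collagenase, and neurons were enriched on an albumin gradient. What promoter drove the vectors, and how many animals stand behind a library, are points not given in the sources used here. The p-values therefore measure the spread between libraries only, and some of it may be technical.

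Collagens are made of 3 α chains wound into a triple helix, which requires a glycine at a fixed place in each repeated triplet of residues. The fibrillar collagens have one long helix and form the fibres of connective tissue, with types I and III as the bulk and types V and XI as minor chains that set fibre width. Type IV collagen and the laminins, each an assembly of an α, a β and a γ chain, form separate networks that nidogens link into the basement membrane. In the ganglion and nerve, basement membrane surrounds the satellite glia that wrap each neuron, the Schwann cells and the blood vessels, while fibroblasts of the endoneurium and of the outer sheaths lay down fibrillar matrix. Fibronectin, laminin and vitronectin are substrates on which axons can grow through integrin receptors.

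In the coding sequence, the unbroken length of the repeat sets the fibrillar collagens apart, while the basement membrane and other collagens overlap. The stretches below, from GENCODE M21 transcripts (GRCm38), are shown because they carry this repeat. They come from the called fibrillar gene, the called gene of the other collagens and a type IV chain. Each is 21 codons of coding sequence, 5′ to 3′. For Col11a1 capitals mark the glycine codons that open each triplet in the middle of its helix, and for the other genes they mark every glycine codon at the end of the longest run.
Col11a1: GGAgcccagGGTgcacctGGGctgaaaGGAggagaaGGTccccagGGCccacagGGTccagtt
Col16a1: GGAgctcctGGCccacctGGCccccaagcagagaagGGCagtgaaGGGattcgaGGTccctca
Col4a1: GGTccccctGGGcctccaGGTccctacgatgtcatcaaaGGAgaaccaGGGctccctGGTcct
The Col16a1 and Col4a1 stretches each hold a break in which the glycine is absent from the expected place. Over all 44 collagen genes, the longest unbroken run of glycine-led triplets was 216 to 344 triplets in the 11 fibrillar collagens (median 338), 30 to 66 in the 8 basement membrane collagens (median 41) and 23 to 113 in the 25 others (median 52). Col24a1 (216) and Col27a1 (217) had the shortest of these runs among the fibrillar collagens. Col4a1 had 79.7% of its codons in blocks of at least 5 triplets, above the 53.5% to 77.2% of the fibrillar collagens, but split into 22 blocks.

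The deposited values are TPM, which correct for transcript length, so that levels can be compared between genes once summed by gene. TPM keeps no read number: sequencing depth is unknown, and counting intervals cannot be given. All 6 libraries carried high levels of sensory neuron genes, with Tubb3 at 3470 TPM and Uchl1 at 4926 TPM on average with AAV-GFP, and also of the satellite glial gene Apoe (7164 TPM). In bulk RNA, fewer cells of a type and less RNA per cell cannot be told apart. Lep, the delivered gene, had values of 0.751, 0.547 and 3.56 TPM in AAV-Leptin-GFP libraries 1, 2 and 3 and was listed at 0 in every AAV-GFP library. Retained-intron transcripts, which keep an intron, took 2.10% to 2.50% of all TPM with AAV-GFP against 3.24% to 3.75% with AAV-Leptin-GFP. AAV-GFP library 1 was the highest of its group, and AAV-Leptin-GFP library 3 stood apart in haemoglobin and other erythroid genes.

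The 62 genes together held 803.6, 696.0 and 780.8 TPM in AAV-GFP libraries 1, 2 and 3 and 898.8, 890.0 and 820.4 TPM in the AAV-Leptin-GFP libraries. Sparc was the largest single contributor, at 433.3 ± 27.9 TPM with AAV-GFP against 399.8 ± 15.3 TPM with AAV-Leptin-GFP. Without Sparc the sums were 372, 289.8 and 318.8 TPM against 481.4, 500.0 and 428.4 TPM, and the groups did not overlap. The other most abundant genes with AAV-GFP were Col28a1 (42.6 ± 4.82 TPM; SD, n = 3, as in all values with ±), Col5a3 (36.2 ± 7.92), Lamb1 (25.4 ± 2.93), Nid1 (19.0 ± 1.31), Col16a1 (18.5 ± 4.46), Col1a2 (17.2 ± 1.72) and Col4a1 (16.8 ± 2.42). Neighbours in this order from Nid1 to Col4a1 lay within each other's spread. At the low end, 18 genes had a mean under 1 TPM over the 6 libraries, the lowest at 0.0132 TPM, and were not tested. Of these, 11 had a higher and 7 a lower mean with AAV-Leptin-GFP. Col9a1 and Col6a6 were listed at 0 in some libraries and no member was at 0 in all.

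**Figure D1:**
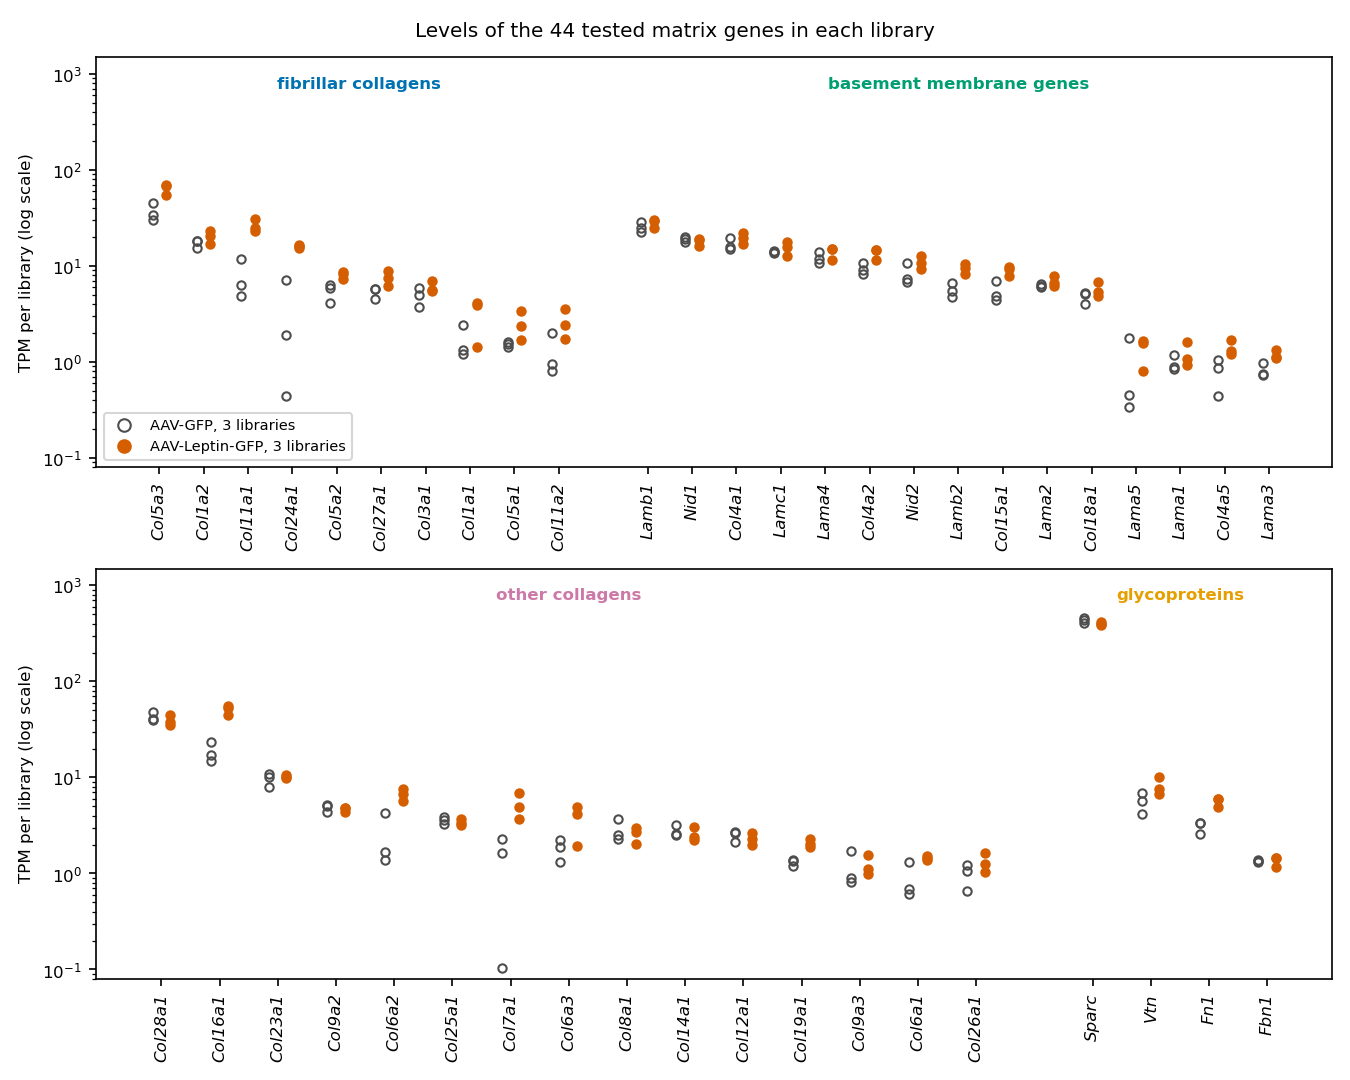
TPM of the 44 tested matrix genes in each library (vertical axis, log scale), grouped by class and ordered by mean level, with open points for AAV-GFP and filled points for AAV-Leptin-GFP. Sparc lies far above every other gene, and the filled points of Col11a1, Col16a1, Col24a1 and Col5a3 lie above all of their open points.

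The 44 genes that averaged 1 TPM or more were tested on log2(TPM + 1) with limma in a fit over all 15108 such genes, and a gene was called at a Benjamini-Hochberg adjusted p under 0.05. All log2 fold changes below are AAV-Leptin-GFP minus AAV-GFP on that scale, where differences of scarce genes are understated. Col11a1 and Col16a1 rose and no member fell, 2 calls among 44 tested members where 1.61% of all tested genes were called. Of all tested genes 1.54% were called higher and 0.0662% lower. Without AAV-GFP library 1 the calls were Col11a1, Col15a1, Col16a1, Col24a1, Col5a3, Col6a2 and Lamb2, 7 members against 2.78% of all tested genes. Without any one of the other 5 libraries 0 members were called. The shares of all genes called were then 0.0265% and 0.0331% without AAV-GFP libraries 2 and 3, and 0.0662%, 0.119% and 0.0993% without AAV-Leptin-GFP libraries 1, 2 and 3. With no filter on low values 0 members were called against 0.0138% of all genes, and with the replicate number as a block 1 member against 0.49%. With a minimum of 5 TPM, quantile normalization, no mitochondrially encoded genes or a pseudocount of 0.1, the calls were 3, 3, 4 and 2 members against 2.62%, 1.79%, 2.22% and 1.73% of all genes. At an unadjusted limma p under 0.05, 16 of the 44 were higher and 0 lower, where 11.3% of all tested genes were higher and 8.19% lower. The AAV-Leptin-GFP libraries all lay above the AAV-GFP libraries in 17 of the 44 genes, where 13.3% of all tested genes did so, and below them in 0, where 11.9% did. The median log2 fold change was 0.32 over the 44 members and -0.00016 over all tested genes, and 36 members lay above 0 and 8 below, against 49.9% and 50.1% of all tested genes. Of the 44, 6 had an AAV-GFP mean under 1 TPM and were tested because of their AAV-Leptin-GFP values, so these counts describe the tested members and not all 62.

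**Figure D2:**
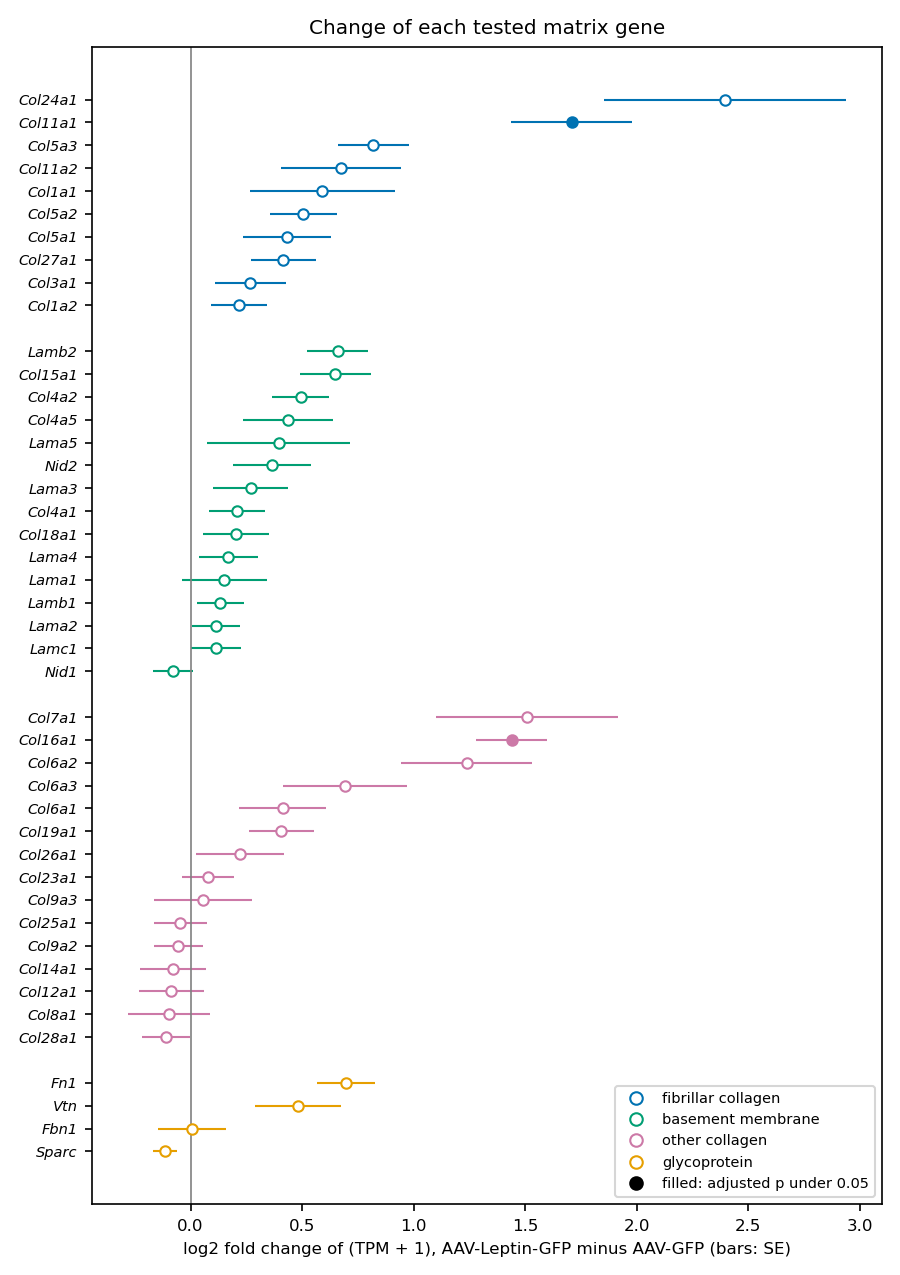
Log2 fold change of (TPM + 1) of each tested matrix gene, AAV-Leptin-GFP minus AAV-GFP (horizontal axis), with the SE from limma as bars, coloured by class and filled where the adjusted p is under 0.05. All 10 tested fibrillar collagens lie above 0, while 6 of 15 other collagens lie below it.

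Among the fibrillar collagens, Col11a1 rose, and the other 9 tested chains had positive log2 fold changes that did not pass the test. Col11a1, the α1 chain of type XI collagen, a minor fibrillar collagen best known from cartilage (ENSMUSG00000027966, chromosome 3, 114030540 to 114220718 on GRCm38), was at 11.9, 4.84 and 6.37 TPM in AAV-GFP libraries 1, 2 and 3. In the AAV-Leptin-GFP libraries it was at 24.6, 30.5 and 22.9 TPM, each of them higher than every AAV-GFP library. The log2 fold change was 1.71 (SE 0.27, limma adjusted p = 0.0359). The adjusted p was 0.0058 without AAV-GFP library 1 but 0.134 and 0.173 without AAV-GFP libraries 2 and 3, and 0.13, 0.177 and 0.101 without AAV-Leptin-GFP libraries 1, 2 and 3. Over these settings the log2 fold change stayed between 1.46 and 2.03.

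Col5a3, a chain of type V collagen, was the most abundant collagen with AAV-Leptin-GFP. It stood at 45.1, 29.8 and 33.9 TPM with AAV-GFP against 70.2, 68.0 and 54.2 TPM with AAV-Leptin-GFP, groups that did not overlap. Its log2 fold change of 0.82 (SE 0.16) missed the threshold (limma adjusted p = 0.0584; 0.0191 to 0.21 over 13 alternatives, past the threshold in 4). Col24a1 had the largest value of all members, 2.40 (SE 0.54, adjusted p = 0.0771). Its AAV-GFP libraries ranged widely, at 7.09, 0.439 and 1.90 TPM, while the AAV-Leptin-GFP libraries were close together at 15.4, 16.0 and 16.6 TPM. Without AAV-GFP library 1 its log2 fold change was 3.06 (adjusted p = 0.00786; 0.00786 to 0.230 over 13 alternatives).

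The chains of types I and III, the bulk of most fibrous tissue, overlapped between the groups. Col1a2 stood at 17.2 ± 1.72 TPM with AAV-GFP against 20.3 ± 3.15 TPM with AAV-Leptin-GFP (log2 fold change 0.22 with an SE of 0.13, limma adjusted p = 0.394). Its partner Col1a1, of which type I collagen needs more than of Col1a2, was far lower at 2.44, 1.23 and 1.34 TPM with AAV-GFP. With AAV-Leptin-GFP it was at 1.42, 4.12 and 3.96 TPM, so library 1 lay inside the AAV-GFP range and the others above it. The ratio of Col1a2 to Col1a1 ran from 5.23 to 13.5 over the 6 libraries. Col3a1, the chain of type III collagen, stood at 4.88 ± 1.07 and 6.03 ± 0.799 TPM (here and below, of a pair of means the AAV-GFP one comes first). The remaining type V chains were Col5a2 (0.51, adjusted p = 0.133) and Col5a1 (0.43, adjusted p = 0.288), both without overlap between groups. Col27a1 (0.42, adjusted p = 0.180) did not overlap either, Col11a2 (0.67, adjusted p = 0.228) did, and Col2a1, the main cartilage chain, stayed under the filter at 0.142 ± 0.0616 and 0.506 ± 0.0582 TPM.

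Summed over types I, II and III the libraries held 26.8, 20.3 and 24.6 TPM with AAV-GFP against 24.4, 33.5 and 32.0 TPM with AAV-Leptin-GFP, which overlap. Summed over types V, XI, XXIV and XXVII they held 79.7, 46.0 and 56.3 TPM against 132.4, 137.4 and 110.6 TPM, which do not. This split of the fibrillar collagens was chosen after the values were seen and carries no test. Most of the class sum's difference lay in 3 genes: without Col5a3, Col11a1 and Col24a1 the ratio of the AAV-Leptin-GFP to the AAV-GFP mean was 1.35, against 1.85 with them.

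Basement membrane genes had smaller differences, and none of the 15 tested passed. The class held 148.5, 124.1 and 124.6 TPM with AAV-GFP against 168.2, 164.3 and 140.6 TPM with AAV-Leptin-GFP, and AAV-Leptin-GFP library 3 lay below AAV-GFP library 1. Of the 15, 4 were tested only because of their AAV-Leptin-GFP values. With that limit, 14 lay above 0, where 49.9% of all tested genes did, with a median log2 fold change of 0.21. Lamb2, Col15a1 and Col4a2, 3 of the 15, were higher with an unadjusted limma p below 0.05, as were 11.3% of all tested genes. The log2 ratio of the class sums was 0.25, but 0.16 under quantile normalization and 0.12 with protein-coding transcripts only.

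Type IV collagen of basement membranes is mostly 2 chains of Col4a1 with 1 of Col4a2. The genes lie head to head on chromosome 8, with starts 21 bases apart, Col4a1 at 11198423 to 11312826 and Col4a2 at 11312805 to 11449287 (GRCm38). Col4a1 was at 19.5, 14.8 and 15.9 TPM with AAV-GFP against 22.0, 19.5 and 17.0 TPM with AAV-Leptin-GFP, with overlap (log2 fold change 0.21 with an SE of 0.13, limma adjusted p = 0.417). Col4a2 was at 10.8, 8.26 and 9.12 TPM against 14.8, 14.5 and 11.6 TPM, without overlap (0.49, SE 0.13, adjusted p = 0.101). The ratio of Col4a1 to Col4a2 was thus 1.80, 1.80 and 1.75 in the AAV-GFP libraries and 1.48, 1.34 and 1.47 in the AAV-Leptin-GFP libraries, a description with no test. The other head-to-head pairs were scarce: Col4a5 stood at 0.786 ± 0.308 and 1.40 ± 0.244 TPM, and Col4a3, Col4a4 and Col4a6 stayed under 0.5 TPM in each library. The multiplexins, collagens whose tails release the fragments endostatin and restin, were Col15a1 at 6.97, 4.86 and 4.47 TPM against 9.19, 9.86 and 7.90 TPM (0.65, SE 0.16, adjusted p = 0.0918) and Col18a1 (0.20, adjusted p = 0.505).

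Of the laminin genes, Lamb1 (25.4 ± 2.93 TPM with AAV-GFP) and Lamc1 (14.0 ± 0.241 TPM) were the main β and γ chains. Lama4 (12.2 ± 1.65 TPM), the α chain of vessels and of nerve, and Lama2 (6.25 ± 0.251 TPM), the α chain of Schwann cell and muscle basement membrane, were the main α chains. Lama1, Lama3 and Lama5 averaged under 1 TPM with AAV-GFP, and Lamb3 and Lamc3 were under the filter. Lamb1, Lamc1, Lama4 and Lama2 had log2 fold changes of 0.11 to 0.17 with overlapping groups, but Lamb1 was at -0.34 when only annotated protein-coding transcripts were kept, which mainly dropped a transcript of unknown class, and Lama2 was at -0.004 under quantile normalization. Lamb2, a β chain found at synapses and in nerve and kidney, differed more, at 6.68, 5.46 and 4.77 TPM with AAV-GFP against 10.6, 8.25 and 9.51 TPM with AAV-Leptin-GFP. Its log2 fold change was 0.66 (SE 0.14, limma adjusted p = 0.0660; 0.0442 to 0.233 over 13 alternatives, under the threshold without AAV-GFP library 1). Of Lamb2, 7.03% was listed on transcripts that do not encode protein with AAV-GFP against 26.7% with AAV-Leptin-GFP, and with protein-coding transcripts only its log2 fold change was 0.34 (adjusted p = 0.194). Of the linker genes, Nid1 stood at 19.0 ± 1.31 and 18.0 ± 1.61 TPM (-0.08, adjusted p = 0.683) and Nid2 at 8.27 ± 2.07 and 10.8 ± 1.77 TPM (0.36, adjusted p = 0.308). Retained-intron transcripts held 7.22% of Nid2 with AAV-GFP against 27.5% with AAV-Leptin-GFP, while its protein-coding transcripts averaged 7.51 and 7.77 TPM.

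**Figure D3:**
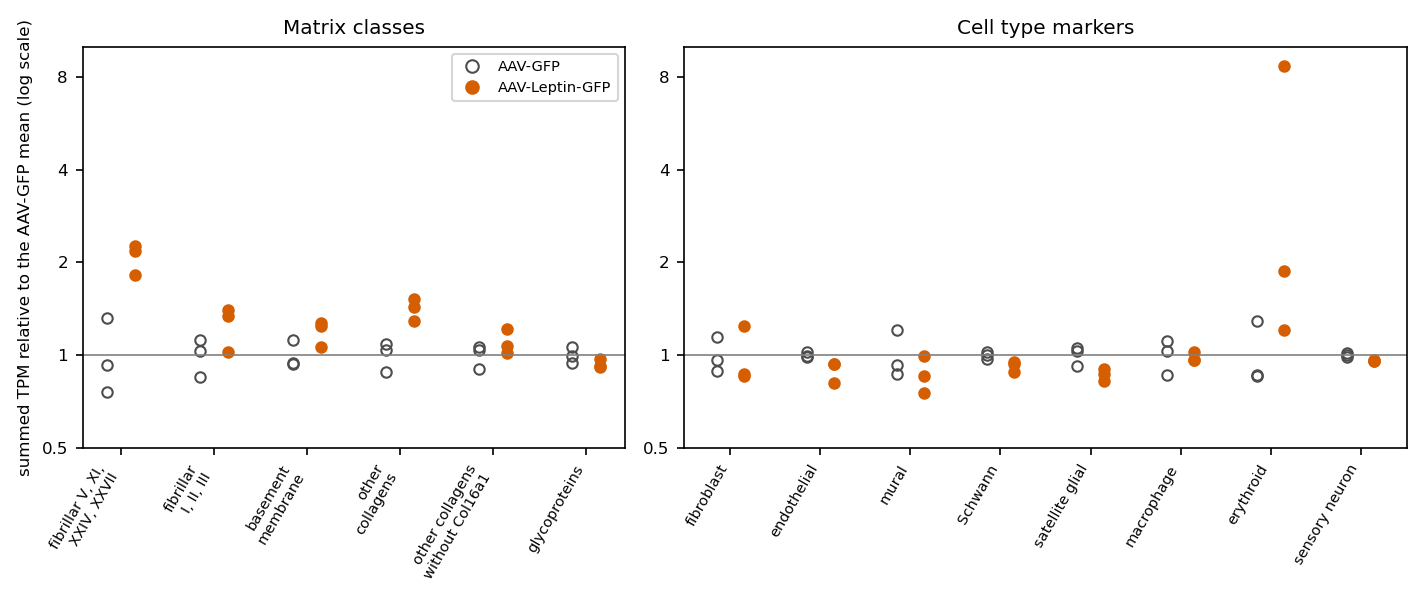
Summed TPM per library of matrix classes (left) and cell type marker lists (right), each divided by the AAV-GFP mean (log scale), with open points for AAV-GFP and filled points for AAV-Leptin-GFP. The fibrillar chains of types V, XI, XXIV and XXVII lie higher in the 3 AAV-Leptin-GFP libraries, and among the markers the erythroid list is led by AAV-Leptin-GFP library 3.

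Among the other collagens, Col16a1 rose, and 9 of the other 14 tested lay between -0.11 and 0.22 on the log2 scale. Col16a1 belongs to the collagens with interrupted helices that attach to the surface of fibrils (ENSMUSG00000040690, chromosome 4, 130047840 to 130099283). It was at 23.5, 14.9 and 17.0 TPM in AAV-GFP libraries 1, 2 and 3 against 55.7, 52.3 and 45.2 TPM in AAV-Leptin-GFP libraries 1, 2 and 3, with a wide gap between the groups. The log2 fold change was 1.44 (SE 0.16, limma adjusted p = 0.0173). The adjusted p was 0.00364 without AAV-GFP library 1, 0.0861 and 0.131 without AAV-GFP libraries 2 and 3, and 0.108, 0.137 and 0.0603 without AAV-Leptin-GFP libraries 1, 2 and 3, with log2 fold changes of 1.31 to 1.62.

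The class of 25 other collagens summed to 107.2, 87.2 and 102.5 TPM with AAV-GFP against 141.6, 149.8 and 127.2 TPM with AAV-Leptin-GFP. Without Col16a1 the sums were 83.7, 72.3 and 85.5 TPM against 86.0, 97.5 and 82.0 TPM, and the groups overlapped. The relatives of Col16a1 in the same collagen subtype group included Col9a2 (-0.05), Col14a1 (-0.08) and Col12a1 (-0.09), whose groups overlapped. Col19a1, also placed in that subtype group, stood at 1.31 ± 0.0915 and 2.07 ± 0.215 TPM without overlap (0.41, limma adjusted p = 0.189).

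Type VI collagen, a beaded network close to basement membranes, is built from the chains of Col6a1, Col6a2 and Col6a3. Col6a2 was at 4.30, 1.38 and 1.69 TPM with AAV-GFP against 7.60, 6.74 and 5.69 TPM with AAV-Leptin-GFP, without overlap (log2 fold change 1.24 with an SE of 0.29, limma adjusted p = 0.0861). Without AAV-GFP library 1 its adjusted p was 0.00894 (0.00894 to 0.246 over 12 alternatives). Col6a1 (0.41, adjusted p = 0.304) did not overlap either, and Col6a3 (0.69, adjusted p = 0.232) did, since AAV-Leptin-GFP library 1 at 1.94 TPM lay within the AAV-GFP range. Col6a4, Col6a5 and Col6a6 were under 0.3 TPM in every library.

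Col28a1, a collagen known from peripheral nerve, was the most abundant collagen with AAV-GFP and differed little, at 40.2, 39.6 and 48.2 TPM against 38.1, 44.7 and 35.5 TPM (-0.11, SE 0.11, limma adjusted p = 0.622). Col7a1, the anchoring fibril collagen of skin, had a log2 fold change of 1.51 (SE 0.41, adjusted p = 0.109) from low levels of 2.29, 0.104 and 1.63 TPM to 4.92, 6.91 and 3.70 TPM. Of its TPM, 51.5% with AAV-GFP against 58.8% with AAV-Leptin-GFP lay on transcripts that do not encode protein, largely a retained-intron transcript of 525 bases. The collagens that span the cell membrane were Col23a1 at 9.68 ± 1.50 and 10.2 ± 0.467 TPM and Col25a1 at 3.59 ± 0.300 and 3.44 ± 0.262 TPM, with Col13a1 and Col17a1 under the filter. Col8a1 (-0.10), Col26a1 (0.22) and Col9a3 (0.06) overlapped between groups.

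The summed glycoproteins were not higher with leptin, at 441.6, 418.5 and 472.9 TPM with AAV-GFP against 432.2, 404.9 and 410.0 TPM with AAV-Leptin-GFP. It followed Sparc, a collagen-binding protein with roles in basement membranes, at 431.6, 406.2 and 462.0 TPM against 417.4, 390.0 and 392.0 TPM (log2 fold change -0.11 with an SE of 0.06, limma adjusted p = 0.311). The summed level of 8 satellite glial markers was lower without overlap, at 7880.0 to 9008 TPM with AAV-GFP against 7066 to 7740.1 TPM with AAV-Leptin-GFP, and its part in the Sparc values was not tested. Apoe made up 83.5% of that sum with AAV-GFP. Without Apoe the sums overlapped. Of the 8 markers, 3 had log2 fold changes above 0, Glul (0.14), Sox10 (0.21) and Cdh19 (0.20), and 5 lay below 0. Fabp7 was the lowest at -0.53 (limma adjusted p = 0.106), and none of the 8 passed. At an unadjusted limma p under 0.05, 1 was higher and 3 lower, where 11.3% of all tested genes were higher and 8.19% lower. Fn1, which encodes fibronectin, was at 3.32, 3.32 and 2.60 TPM with AAV-GFP against 5.98, 4.88 and 5.98 TPM with AAV-Leptin-GFP, without overlap. Its log2 fold change of 0.70 (SE 0.13) missed the threshold narrowly (adjusted p = 0.0535; 0.0434 to 0.178 over 12 alternatives, past the threshold in 1). Vtn, which encodes the plasma and matrix protein vitronectin, was at 4.20, 6.81 and 5.71 TPM against 6.69, 7.60 and 10.2 TPM (0.48, adjusted p = 0.231), with AAV-Leptin-GFP library 1 just inside the AAV-GFP range. Fbn1 for the microfibril protein fibrillin-1 stood at 1.35 ± 0.0440 and 1.36 ± 0.168 TPM, and Tnc for tenascin-C was under the filter at 1.03 ± 0.213 and 0.818 ± 0.184 TPM.

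Set side by side, the mean of AAV-Leptin-GFP over that of AAV-GFP was 1.85 for the summed fibrillar collagens, 1.41 for the other collagens, 1.19 for the basement membrane genes and 0.936 for the glycoproteins. Without Sparc the glycoprotein sums were 9.91, 12.3 and 10.9 TPM against 14.8, 15.0 and 18.0 TPM, which did not overlap and gave 1.45. Within each library, fibrillar collagens were at 0.717, 0.534 and 0.649 times the basement membrane sum with AAV-GFP and at 0.932, 1.04 and 1.01 times with AAV-Leptin-GFP. The 2 groups did not overlap in this ratio, which was not tested because it is a score over the chosen genes. Of the tested members, 8 of 10 fibrillar collagens, 6 of 15 other collagens, 4 of 15 basement membrane genes and 2 of 4 glycoproteins had a log2 fold change of at least 0.4, where 8.91% of all tested genes did. Among those counted, Col4a5 and Col6a1 had AAV-GFP means of 0.786 and 0.874 TPM and were tested only because of their AAV-Leptin-GFP values. The cut of 0.4 serves description only, and the counts depend on it. Col19a1 (0.406), Col6a1 (0.412), Col27a1 (0.415), Col5a1 (0.432) and Col4a5 (0.436) lay just above it. Whether the length of the helix goes with the change was not tested. All 10 tested fibrillar chains lay above 0, while 6 of the 15 tested other collagens lay below it. Col16a1, Col7a1 and Col6a2, with runs of 52, 75 and 87 triplets, lay above 8 of the 10 fibrillar chains.

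**Figure D4:**
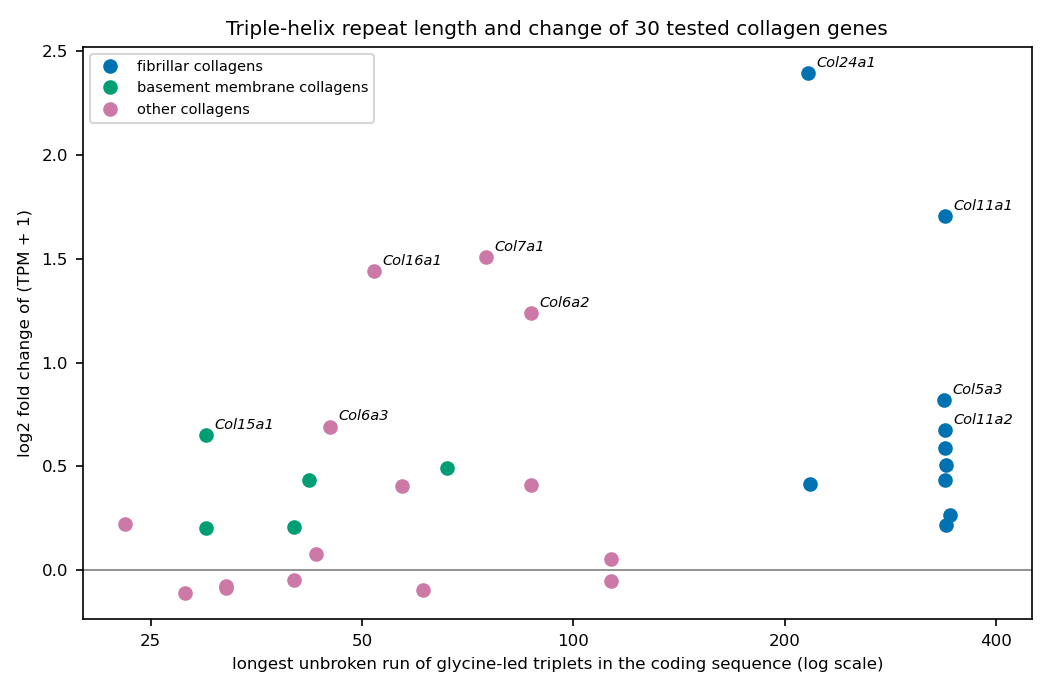
Log2 fold change of (TPM + 1) of the 30 tested collagen genes (vertical axis) against the longest unbroken run of glycine-led triplets in the coding sequence (horizontal axis, log scale), coloured by class. Fibrillar collagens form the cluster at 216 to 344 triplets and lie above 0, and the shorter runs hold both Col16a1 at 1.44 and genes near 0.

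The 334 listed transcripts of these genes differed in class as well as in amount. Leaving out Sparc, transcripts annotated in a class other than protein-coding took 10.4%, 5.04% and 7.05% of the members' TPM in AAV-GFP libraries 1, 2 and 3 and 16.7%, 15.7% and 15.1% in the AAV-Leptin-GFP libraries. Another 5 transcripts, absent from GENCODE M21 and so of unknown class, took 0.0538% to 5.61% in single libraries. The whole libraries differed in the same direction in their retained-intron share (above), and the part of this in the gene values was not tested. For Col11a1, transcripts marked for nonsense-mediated decay, which carry an early stop, held 5.62, 1.70 and 1.61 TPM with AAV-GFP against 11.4, 14.3 and 10.8 TPM with AAV-Leptin-GFP. Its protein-coding transcripts held 6.25, 3.14 and 4.76 TPM against 13.1, 16.2 and 12.0 TPM. For Col16a1 the protein-coding transcripts held 15.1, 11.8 and 9.69 TPM against 25.7, 29.1 and 23.7 TPM, and their share of the gene went from 66.7% to 51.4%. Both genes also passed when only protein-coding transcripts were summed, Col11a1 at 1.40 (limma adjusted p = 0.0312) and Col16a1 at 1.06 (adjusted p = 0.0266), where 0.437% of 13033 tested genes did so. Over all 13 alternatives the adjusted p ranged from 0.0058 to 0.177 for Col11a1 and from 0.00364 to 0.137 for Col16a1. Col5a3 was almost wholly protein-coding, at 98.6% and 95.8% of its TPM. Lamb1 is uncertain at this level, because a transcript that GENCODE M21 lacks held 0, 7.05 and 17.2 TPM with AAV-GFP against 18.8, 2.71 and 17.9 TPM with AAV-Leptin-GFP.

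**Figure D5:**
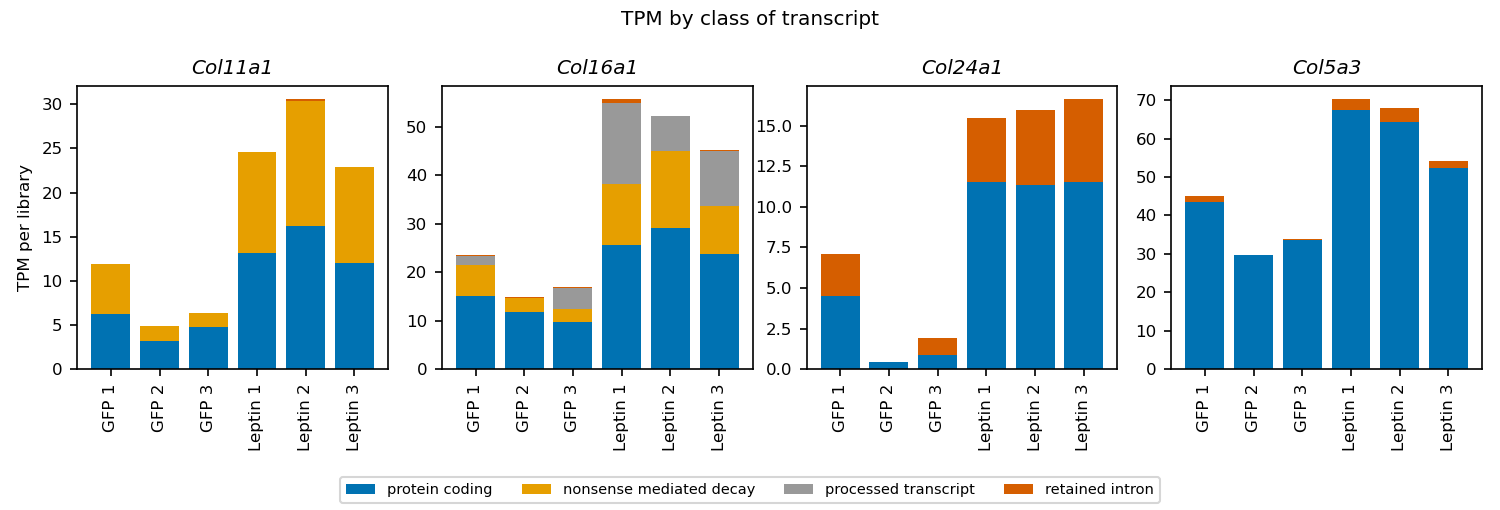
TPM per library of Col11a1, Col16a1, Col24a1 and Col5a3, stacked by the class of transcript. In Col11a1 and Col16a1 the protein-coding part and the parts that are not translated as full proteins are both higher in the AAV-Leptin-GFP libraries, while Col5a3 is almost all protein-coding.

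Matrix genes have many exons, with a median of 48 in the tested members against 9 over all tested genes with a coding transcript. Across the 44 members, the Spearman correlation of exon number with log2 fold change was 0.41, and across 13346 tested genes it was 0.28. For the span of the gene the values were -0.23 over the 44 members and 0.03 over 15002 genes. These are correlations across genes of the same 6 libraries, and genes are not independent replicates.

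Member promoters were searched for sites of factors known to act downstream of leptin (STAT) and of injury signals (AP-1 and cAMP response factors). General promoter elements were searched as well. Those of the 2 called genes are printed, beside that of Lamb2, which was not called but held a STAT match. The 250 bases before the RefSeq start (GRCm38.p6) were searched on both strands for the AP-1 site TGANTCA, the STAT site TTCNNNGAA, the cAMP response element TGACGTCA, the GC box GGGCGG and TATAAA, none of which is a part of another. Capitals mark the matches. Col11a1 lies at chr3:114030290-114030539 (plus strand), Col16a1 at chr4:130047590-130047839 (plus strand) and Lamb2 at chr9:108479612-108479861 (plus strand).
Col11a1: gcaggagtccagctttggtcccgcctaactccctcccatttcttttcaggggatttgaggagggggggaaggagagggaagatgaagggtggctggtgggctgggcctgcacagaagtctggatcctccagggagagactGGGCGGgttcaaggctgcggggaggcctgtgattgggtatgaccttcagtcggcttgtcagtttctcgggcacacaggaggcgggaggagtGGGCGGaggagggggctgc
Col16a1: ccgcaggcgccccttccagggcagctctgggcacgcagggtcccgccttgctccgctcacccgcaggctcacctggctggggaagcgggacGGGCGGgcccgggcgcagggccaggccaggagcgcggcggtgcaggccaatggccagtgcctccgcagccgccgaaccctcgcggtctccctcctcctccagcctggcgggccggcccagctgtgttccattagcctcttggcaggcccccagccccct
Lamb2: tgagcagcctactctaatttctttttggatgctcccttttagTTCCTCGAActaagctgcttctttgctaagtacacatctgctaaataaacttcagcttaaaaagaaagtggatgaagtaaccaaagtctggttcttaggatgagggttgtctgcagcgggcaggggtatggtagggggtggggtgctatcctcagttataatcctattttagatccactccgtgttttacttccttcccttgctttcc
Col11a1 held 2 GC boxes, Col16a1 held 1, and neither held an AP-1, STAT or cAMP response match in this window. Lamb2 held a STAT match at position -208 from the start site. The most abundant transcript of Col16a1, a protein-coding one of 4037 bases, starts 8150 bases downstream of that start, so the window belongs to the longer transcript whose repeat is printed above. An exon of Gm12963, annotated on the other strand, lies within that window. Of the 62 members, 45 had a window in the table. Among them 1 held an AP-1 match (Col6a1), 3 a STAT match (Col28a1, Col6a5 and Lamb2), 0 a cAMP response match, 26 a GC box and 7 a TATA match. None of the 3 with a STAT match was called. Lamb2 had a log2 fold change of 0.66 (limma adjusted p = 0.0660) and Col28a1 of -0.11 (adjusted p = 0.622), and Col6a5 was under the filter. Over all 32851 windows the shares were 6.75% for AP-1, 7.02% for STAT, 1.55% for the cAMP response element, 32.7% for the GC box and 12.4% for TATA. These are matches of letters, not shown to be bound sites.

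Genes that process collagen, receive matrix signals or cut matrix had medians near 0. Beside the counts below, 1.54% of all tested genes were called higher and 0.0662% lower. At an unadjusted limma p under 0.05, 11.3% of all tested genes were higher and 8.19% lower. Of the collagen processing genes, 5 were higher and 0 lower at that unadjusted threshold. Of 29 tested collagen processing genes 1 rose and none fell, with a median log2 fold change of 0.03: P3h3, a prolyl 3-hydroxylase family member, stood at 4.52 ± 0.647 TPM with AAV-GFP against 10.9 ± 0.820 TPM with AAV-Leptin-GFP (1.11, SE 0.12, limma adjusted p = 0.0155). None of 24 tested matrix receptors passed (median -0.02), with 1 higher and 2 lower at an unadjusted limma p under 0.05. The member with the smallest p was Itga5, the fibronectin-binding integrin α5, at 1.27 ± 0.471 and 2.35 ± 0.364 TPM (0.58, adjusted p = 0.167). Of 20 tested proteases and inhibitors only Adamts1, a protease that cuts proteoglycans, passed, rising from 7.82 ± 0.0880 to 11.5 ± 0.168 TPM (0.50, SE 0.07, adjusted p = 0.0298). The median of these 20 was -0.0044, with 1 higher and 0 lower at the unadjusted threshold. Both calls held without AAV-GFP library 1 and were lost without each other library. Without single libraries the adjusted p ran from 0.00772 to 0.127 for P3h3 and from 0.04 to 0.162 for Adamts1. With protein-coding transcripts only, the adjusted p was 0.447 for P3h3, the highest of its 13 alternatives.

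Of 25 tested genes of other matrix and basement membrane proteins, 2 rose and none fell (median 0.04), where 1.61% of all tested genes were called. At an unadjusted limma p under 0.05, 6 of these 25 were higher and 0 lower, where 11.3% and 8.19% of all tested genes were. Agrn, which encodes the basement membrane proteoglycan agrin, was at 23.5, 11.9 and 13.7 TPM with AAV-GFP against 51.0, 53.7 and 44.8 TPM with AAV-Leptin-GFP (log2 fold change 1.61 with an SE of 0.22, limma adjusted p = 0.0275). Ltbp3, which encodes a binding protein of latent TGF-β, stood at 64.4 ± 9.18 and 103.9 ± 6.58 TPM (0.69, SE 0.10, adjusted p = 0.0301). Of 20 tested TGF-β signalling genes, which in many tissues drive collagen synthesis, 1 rose and none fell (median 0.05). At the unadjusted threshold 2 were higher and 0 lower. The called gene was Ccn1, a matricellular gene that growth factors induce quickly, at 18.3 ± 3.22 and 68.0 ± 19.2 TPM (1.82, SE 0.20, adjusted p = 0.0171). Without single libraries the adjusted p ran from 0.00252 to 0.165 for Agrn, from 0.00649 to 0.165 for Ltbp3 and from 0.0127 to 0.131 for Ccn1. The Agrn and Ltbp3 calls held without AAV-GFP library 1 and were lost without each of the other 5, and that of Ccn1 held without AAV-GFP library 1 or AAV-Leptin-GFP library 2 and was lost without each of the other 4. Over all 13 alternatives the Agrn and Ltbp3 calls held in 5 each and that of Ccn1 in 7, and the highest adjusted p of Ltbp3, with protein-coding transcripts only, was 0.263.

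Markers of the fibroblasts and vessel cells that make much of this matrix were low beside those of glia and neurons. The 9 fibroblast markers summed to 57.6, 48.6 and 44.8 TPM with AAV-GFP against 43.0, 43.7 and 62.3 TPM with AAV-Leptin-GFP. Most of that was Dcn (39.3 and 39.6 TPM on average), with Pdgfra at 0.992 and 1.04 TPM and Dpt under 0.1 TPM. No fibroblast marker passed limma's adjusted or unadjusted threshold, and 5 of 6 tested lay below 0. The 9 endothelial markers summed to 78.1 to 81.2 and 64.1 to 74.3 TPM, and the 9 mural markers to 66.5 to 92.4 and 57.4 to 76.1 TPM. Egfl7 made up 82.9% of the endothelial sum with AAV-GFP and Rgs5 75.4% of the mural sum. Without them the means were 13.6 and 14.5 TPM for the other 8 endothelial markers and 18.8 and 19.1 TPM for the other 8 mural markers, with overlapping groups. The part of these cells in the matrix values was not tested. The 10 Schwann cell markers summed to 1476 to 1556 and 1336 to 1435 TPM, led by Pmp22. Of these Egr2 alone passed, rising from 4.71 ± 0.532 to 13.0 ± 2.04 TPM (log2 fold change 1.29, limma adjusted p = 0.0155), and it is also an immediate early gene. Its call held without AAV-GFP library 1 or AAV-Leptin-GFP library 1 and was lost without each of the other 4 (adjusted p 0.0185 to 0.125). The 8 macrophage markers, led by Lyz2, summed to 67.5 to 86.5 and 75.0 to 80.1 TPM. The 9 sensory neuron markers summed to 15639 to 16097 and 15138 to 15331 TPM, lower with AAV-Leptin-GFP without overlap. Of these 9, 7 lay below 0 and 2 above, and none passed. At an unadjusted limma p under 0.05, 1 was higher and 3 lower, where 11.3% and 8.19% of all tested genes were. The part of this difference in the matrix values was not tested. The 5 erythroid markers, led by Hbb-bs, summed to 256.5, 170.1 and 171.2 TPM against 239.4, 373.8 and 1724 TPM. No member of these 8 lists was at 0 in all libraries.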

How the data were processed

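Stranded libraries of polyadenylated RNA were made from the dissociated ganglia, per the labels' protocols. The authors deposited TPM values for 140789 Ensembl transcripts in 6 libraries. Per the submitters' processing notes, the tools were DESeq2 1.34.0, Salmon 1.6.0, Trim Galore 0.6.6 and FastQC 0.11.9 and the builds mm10 and GRCm38, without their roles. An annotation release was not given in the sources used here. Values of single transcripts are less certain than gene sums because overlapping transcripts share reads.

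TPM were summed by gene identifier, and groups were taken from the sample titles. The test was limma's moderated one (version 3.58.1, R 4.3.3; two-sided, mean-variance trend, without covariates) on log2(TPM + 1) of genes averaging 1 TPM or more. Python 3.11.15, pandas 2.3.3, matplotlib 3.10.9 and the R package data.table (version 1.17.8) did the rest. The test was also run on simulated data with independent normal noise for each gene. That simulation held no difference shared by the genes of a library, and its outcome is not reported here. Transcript classes, exons, gene coordinates and coding sequences came from GENCODE M21 (GRCm38), which holds 97.4% of the transcript identifiers. Promoters came from RefSeq. Class sums and ratios are descriptions without a test. The members and gene lists were chosen with earlier results of these data known. Named genes were the called members, the 4 most abundant and the 2 with the smallest p of each collagen subtype group, the laminins, the nidogens and the glycoproteins, other members for their level, the called or smallest-p genes of each pathway list, and the most abundant and called genes of each marker list. Tubb3, Pdgfra, Dpt, Glul, Sox10, Cdh19 and Fabp7 were added after their values were seen. Not every gene is reported here by name. Alternatives were another pseudocount (0.1), no filter or a minimum of 5 TPM, quantile normalization, the replicate number as a block, removal of mitochondrially encoded genes, protein-coding transcripts only (which also drops those absent from GENCODE M21), and leaving out each library.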

Additional observations from a re-analysis of the deposited data

How the results depend on the processing

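The number of matrix genes called, 2 of 44, was 2 with a pseudocount of 0.1 and with protein-coding transcripts only. It was 3 with a minimum of 5 TPM and under quantile normalization, both of which added Col5a3. It was 4 without mitochondrially encoded genes (Col5a3 and Fn1 added), 1 with the replicate block (Col16a1), and 0 of 62 with no filter, where 4 of 29036 genes were called. Leaving out each replicate gave 0 to 7 members and 4 to 420 of all genes, against 243. The other counts over all genes were 74 with the replicate block and 57 with protein-coding transcripts only, and 262 to 338 in the remaining settings. The cause of these shifts was not tested. Same-numbered libraries of the 2 groups did not deviate together (correlations of deviations 0.034, -0.07 and -0.024 for numbers 1, 2 and 3). No AAV-GFP library correlated best with its own number. These values give no sign that the numbers pair the samples, but with 3 libraries per group they cannot exclude a pairing.

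The log2 ratio of the summed other collagens was 0.50 and moved to 0.30 with protein-coding transcripts only, and that of the glycoproteins moved from -0.096 to -0.022 under quantile normalization. That of the basement membrane genes went from 0.253 to 0.163 under quantile normalization and to 0.123 with protein-coding transcripts only, within 1 SD between libraries. The fibrillar ratio stayed between 0.77 and 0.92 in these settings and without mitochondrially encoded genes. Leaving out each library gave 0.74 to 1.09 for the fibrillar collagens, 0.20 to 0.34 for the basement membrane genes, 0.41 to 0.56 for the other collagens and -0.137 to -0.049 for the glycoproteins.

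Genes close to 0 that changed sign were all uncalled. With protein-coding transcripts only, Lamb1 was at -0.342, Col9a2 at 0.189 and Fbn1 at -0.031. Under quantile normalization, Lama2 was at -0.004, Col23a1 at -0.021, Fbn1 at -0.132 and Col9a3 at -0.077. Leaving out each library gave -0.176 to 0.002 for Col14a1, -0.026 to 0.066 for Fbn1, -0.052 to 0.239 for Col9a3, -0.038 to 0.164 for Col23a1 and -0.197 to 0.059 for Col8a1. Because TPM keeps no read number, how far depth limits the low genes is unknown.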
